A study of Sus scrofa with 13 samples.

Results

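The genes described here are 30 regulators of the p53 response, cellular senescence and apoptosis, chosen by name. Of these, 28 had a row among the 27339 genes of the count tables, and CDKN2A and BIRC2 were not analysed here. The values are reads of DNA carrying 5-hydroxymethylcytosine (5hmC), an oxidised form of methylated cytosine, captured with an antibody and counted per gene. They measure a mark on the DNA and not the expression of the gene.

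All cells were mesenchymal stem cells, the stromal cells that grow out of digested fat. They came from the abdominal fat of female domestic pigs, taken 3 weeks after a coil had been placed to narrow a renal artery, in animals given a 2% cholesterol diet from 6 weeks before. The 6 hypoxia libraries came from cells kept for 48 hours in 1% oxygen, and the 6 normoxia libraries from cells kept in 20% oxygen. Both groups thus share the diet, the stenosis and expansion in culture. Sample titles start with the numbers 110, 16, 21, 33, 49 and 4, and every number has 1 hypoxia and 1 normoxia library. The labels do not say what a title number marks, and the p-values describe only how these libraries scatter, part of which could be technical.

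The p53 pathway halts the cell cycle or starts apoptosis after damage to DNA. MDM2 and MDM4 restrain p53, and its target CDKN1A and the INK4 proteins of the CDKN2 genes block the kinases that inactivate the RB family. Lasting arrest of this kind is senescence, which limits the expansion of stromal cells in culture. Apoptosis runs through the BCL2 family at the mitochondrion and through death receptors, and both routes end in caspases. These roles are known mainly from human and mouse cells.

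The libraries held 263578 to 714002 reads in genes, 1.69 to 2.89% of all reads, and the normoxia library of number 21 was the shallowest. The 28 genes took 0.115 to 0.142% of gene reads in hypoxia and 0.113 to 0.176% in normoxia, with 405 to 877 reads per hypoxia library and 367 to 1000 per normoxia library. Stromal marker genes summed to 675 to 925 CPM in hypoxia (reads scaled to the effective size of each library) and 657 to 1240 CPM in normoxia. Leukocyte markers summed to 315 to 443 CPM in hypoxia and 245 to 546 CPM in normoxia, and endothelial markers to 337 to 497 CPM in hypoxia and 263 to 410 CPM in normoxia. No marker gene was at 0 in all 12 libraries. Because 5hmC reads at a marker gene do not measure its expression, they do not check the cell type. More cells carrying the mark and more of the mark per cell cannot be told apart in these bulk samples. Counts were scaled to each library, so a change in the total amount of 5hmC is not measured. Levels were not compared between genes, since no gene length was used.

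Of the 28 genes, 21 passed the filter on low counts and were tested. None passed edgeR's quasi-likelihood test for hypoxia against normoxia after Benjamini-Hochberg adjustment over all 11868 tested genes, where 0% of genes were called. At an unadjusted p under 0.05 the count was 0 of 21, against 2.73% of all tested genes, and DESeq2 also called 0. With the title number as a block, 0 of 21 passed the adjusted threshold, against 0.0337% of all genes, and 1 of 21, MDM2, had an unadjusted p under 0.05. Over all genes that share was 7.09%, or 4.49% counting those lower in hypoxia. Leaving out any 1 library, or both libraries of any 1 number in the blocked fit, left the count at 0. Fold changes of the 21 ran from -0.65 to 0.40 on the log2 scale, with standard errors of 0.229 to 0.398.

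Most of these fold changes were below 0. Of the 21, 18 were negative and 3 positive, where 56.6% of all tested genes were negative, and the median was -0.17 against -0.04 over all tested genes. The groups of every one of the 28 genes overlapped, as did those of all but 0.101% of the tested genes. The hypoxia library was the lower one in 5 or 6 of the 6 numbers at 6 of the 21 genes, against 14.3% of all tested genes. It was the higher one that often at 0 of 21, against 11.9%. When libraries were scaled by size alone, the split was 16 negative and 5 positive, where 48.8% of all genes were negative. The median lay at -0.26 without normoxia 16, and at -0.11 without normoxia 21 or without normoxia 33. Without normoxia 21, the split was 14 negative and 7 positive, where 51.9% of all genes were negative. Without normoxia 4 it was 15 and 6, where 50.7% were. The blocked fit gave 17 negative and 4 positive, where 53.4% of all genes were negative. Without both libraries of number 21, the blocked fit gave 12 negative and 9 positive, where 51.2% of all genes were negative.

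The lower values did not hold in every number, and the numbers within sequencing lane 8 differed. Within a number, the median log2 ratio of hypoxia over normoxia of the 21 genes was -0.04 for 110, -0.09 for 16, -0.24 for 21, -0.22 for 33 and -0.26 for 49. For number 4 it was 0.22, with 12 genes higher and 9 lower in hypoxia. The pairing is least certain for number 4, whose 2 libraries correlated at only 0.136 and each correlated best with number 33. The medians over all tested genes lay between -0.05 and 0.01 in the 6 numbers. The 8 libraries of lane 7 gave 17 negative and 4 positive fold changes, where 56.6% of all tested genes were negative. The 4 libraries of lane 8, those of numbers 49 and 4, gave 11 negative and 10 positive. There 52.2% of all tested genes were negative, close to the share of the 21. Within lane 8, hypoxia was lower at 18 of the 21 genes in number 49 and at 9 in number 4.

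**Figure D1:**
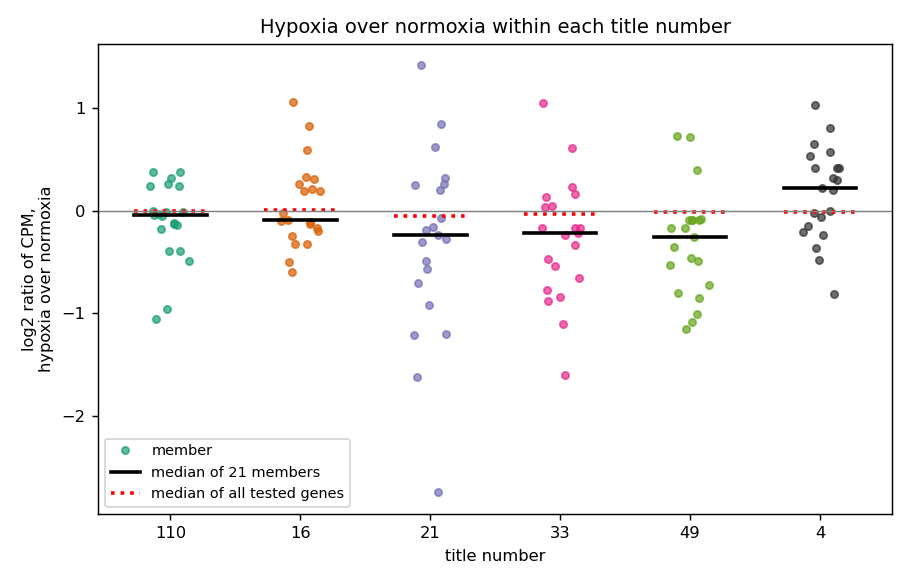
Log2 ratio of 5hmC CPM, hypoxia over normoxia, within each title number. Each point is 1 of the 21 tested genes, the solid bar their median and the dotted bar the median of all 11868 tested genes. The solid bar lies below 0 for 5 numbers, from -0.04 to -0.26, and at 0.22 for number 4.

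The intervals show what size of change the data still allow. In the fit without a block, the 95% interval lay within a 2-fold change in either direction for 18 of the 21 genes. Over all tested genes that share was 77.8%. The exceptions were MDM2 and CDKN2C, whose intervals reached below a 2-fold decrease, and BAX, whose interval reached above a 2-fold increase. In the blocked fit 19 of the 21 lay within 2-fold, against 88.2% of all tested genes. There BAX, at -0.17 to 0.99, was no longer an exception.

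**Figure D2:**
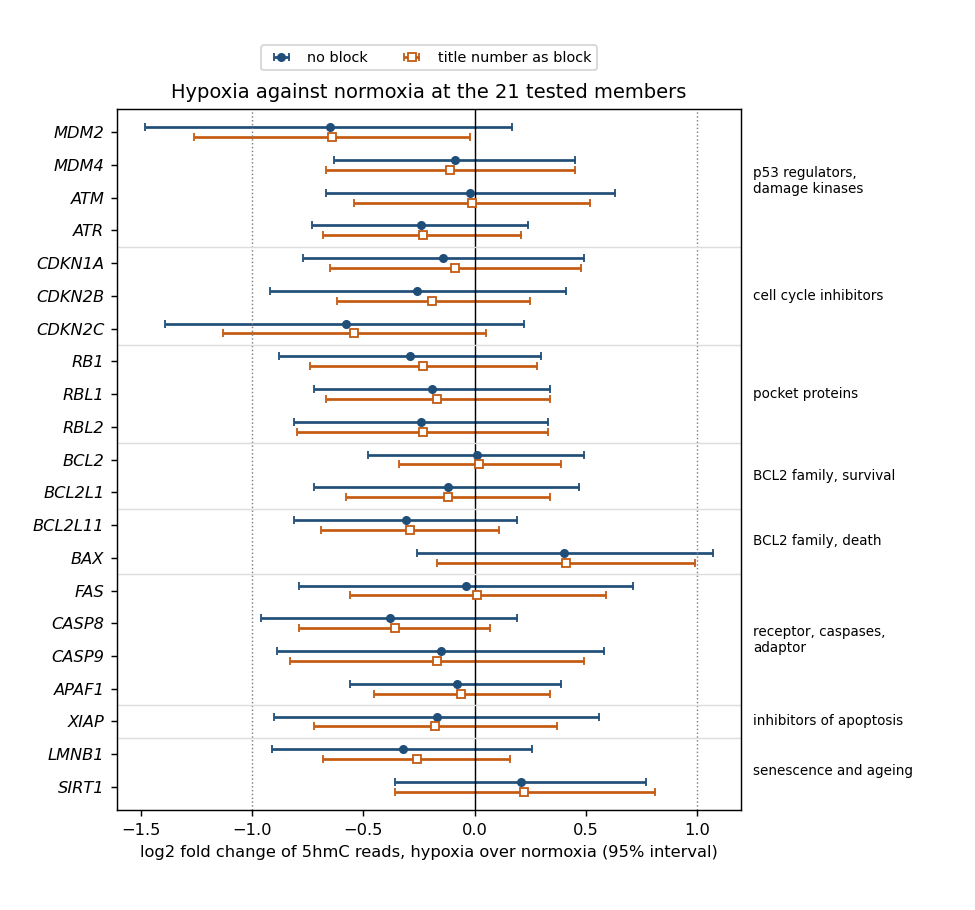
Log2 fold change of 5hmC reads, hypoxia over normoxia, with its 95% interval, for the 21 tested genes grouped by role. Filled circles are the fit without a block and open squares the fit with the title number as a block. Dotted lines mark a 2-fold change, and every interval of the fit without a block covers 0.

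Among the regulators of p53, MDM2, the ubiquitin ligase that marks p53 for destruction, had the fold change farthest from 0. In the number order 110, 16, 21, 33, 49 and 4, MDM2 had 69.4, 24.7, 8.23, 37.1, 56.5 and 30.8 CPM in hypoxia, against 52.2, 21.0, 82.1, 85.4, 96.3 and 32.4 CPM in normoxia. The hypoxia library was lower in 4 of 6 numbers, by far the most in number 21, and the groups overlapped. In number 21 the hypoxia library held only 3 reads and the normoxia library 17. MDM2 averaged 37.8 ± 22.1 CPM in hypoxia and 61.6 ± 30.9 CPM in normoxia (SD, n = 6 each). Its log2 fold change was -0.65 (95% interval -1.48 to 0.17, adjusted p = 1). The blocked fit gave -0.64 (-1.26 to -0.02), with an unadjusted p of 0.0429 and an adjusted p of 0.697. The unadjusted p was no longer under 0.05 without number 21, 33 or 49, where the blocked value was -0.36, -0.50 and -0.61. With lane 7 libraries alone the value was -0.72, and with lane 8 libraries alone -0.55. Its relative MDM4 had 30.9 ± 5.48 CPM in hypoxia and 33.0 ± 6.02 CPM in normoxia.

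The damage kinases did not pass either. ATM, which responds to double-strand breaks, had a log2 fold change of -0.02 (-0.67 to 0.63), and ATR, which responds to stalled replication, -0.24 (-0.73 to 0.24). ATR was lower in hypoxia in 5 of 6 numbers. The sign of ATM was not stable, at 0.04 when libraries were scaled by size alone and 0.14 within lane 8.

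The cell cycle inhibitors comprised 4 genes with reads, of which CDKN1A, CDKN2B and CDKN2C were tested and had negative fold changes. CDKN2C encodes p18, an inhibitor of the cyclin D-dependent kinases CDK4 and CDK6. It had 29.7, 27.8, 19.2, 19.5, 63.0 and 25.4 CPM in the hypoxia libraries of 110, 16, 21, 33, 49 and 4, against 40.4, 23.4, 14.5, 68.8, 90.2 and 33.9 CPM in normoxia. Number 49 was the highest in both groups and number 21 the lowest in both, with only 7 reads in hypoxia 21 and 3 in normoxia 21. Hypoxia was lower in 4 of 6 numbers, with a log2 fold change of -0.58 (-1.39 to 0.22, adjusted p = 1). The value was -0.26 without normoxia 49 and -0.93 without hypoxia 49.

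CDKN2B, which encodes the INK4 inhibitor p15, had 186, 95.8, 129, 66.4, 128 and 92.5 CPM in hypoxia, against 154, 79.4, 304, 107, 144 and 67.8 CPM in normoxia, in the same number order. Numbers 110, 21 and 49 were the highest 3 in both groups, while hypoxia was higher in 3 numbers and lower in 3. The log2 fold change was -0.26 (-0.92 to 0.41), and 0.06 within lane 8. Without normoxia 21 its sign turned, to 0.07. P14ARF, which follows CDKN2B in the RefSeq gene order and was looked at after the values were seen, had 0 to 3 reads per library.

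CDKN1A, encoding p21, the best-known target of p53, had 45.1 ± 12.1 CPM in hypoxia and 51.2 ± 19.7 CPM in normoxia, a log2 fold change of -0.14 (-0.77 to 0.49). CDKN1B, encoding p27, was not tested, with 1 to 20 reads per library and 40 reads in all hypoxia libraries against 58 in all normoxia libraries.

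The pocket proteins, which hold E2F factors in check until they are phosphorylated, all had negative fold changes. RB1 stood at -0.29 (-0.88 to 0.30), its relative RBL2, also known as p130, at -0.24 (-0.81 to 0.33), and RBL1, or p107, at -0.19 (-0.72 to 0.34). RB1 and RBL1 were each lower in hypoxia in 5 of 6 numbers. Within lane 8 RB1 was at 0.16, and within lane 7 RBL2 was at 0.17.

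In the BCL2 family the survival genes lay near 0. BCL2, the founding inhibitor of mitochondrial apoptosis, had 181, 173, 143, 97.6, 165 and 122 CPM in the hypoxia libraries of 110, 16, 21, 33, 49 and 4, against 183, 175, 169, 82.6, 124 and 142 CPM in normoxia. Numbers 110 and 16 were the highest and number 33 the lowest in both groups. The log2 fold change was 0.01 (-0.48 to 0.49), and -0.04 within lane 7. BCL2L1, which encodes BCL-XL, had -0.12 (-0.72 to 0.47). MCL1, a short-lived survival protein, was not tested, with 0 to 8 reads per library.

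Of the BCL2 family genes that promote death, BAX and BCL2L11 had fold changes of opposite sign. BAX, which opens pores in the mitochondrial membrane, had 34.7, 37.1, 46.6, 39.0, 82.6 and 34.5 CPM in hypoxia, against 38.0, 39.7, 14.5, 16.5, 48.1 and 41.6 CPM in normoxia. It was higher in hypoxia in numbers 21, 33 and 49 and lower in the other 3. BAX averaged 45.8 ± 18.6 CPM in hypoxia and 33.1 ± 14.1 CPM in normoxia, a log2 fold change of 0.40 (-0.26 to 1.07, adjusted p = 1), with 0.46 in lane 7 and 0.37 in lane 8. Without hypoxia 49, its highest library, the value was 0.15. The normoxia libraries of 21 and 33 held only 3 and 6 reads, and without them the value was 0.29 and 0.27.

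BCL2L11, encoding the BH3-only activator BIM, averaged 115 ± 31.1 CPM in hypoxia and 142 ± 42.0 CPM in normoxia. It was lower in hypoxia in 5 of 6 numbers, with a log2 fold change of -0.31 (-0.81 to 0.19), and 0.09 within lane 8. BAK1, a pore former like BAX, and the p53-induced BH3-only genes BBC3 (PUMA) and PMAIP1 (NOXA) were not tested. They had 2 to 14, 1 to 15 and 2 to 15 reads per library.

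The death receptor, caspase and adaptor genes were all tested, and all 4 fold changes were negative. CASP8, the caspase that death receptors activate, had 59.5, 58.7, 71.3, 107, 65.2 and 111 CPM in hypoxia, against 85.5, 91.1, 82.1, 201, 84.2 and 81.7 CPM in normoxia. Hypoxia was lower in 5 of 6 numbers and higher in number 4, and normoxia 33 stood apart from the other normoxia libraries. The log2 fold change was -0.38 (-0.96 to 0.19, adjusted p = 1), with -0.62 in lane 7 and 0.09 in lane 8. Without normoxia 33 it was -0.09. CASP10, its neighbour and relative, had -0.18 ± 0.219 (SE).

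CASP9, the caspase of the mitochondrial route, had a log2 fold change of -0.15 (-0.89 to 0.58), and 0.24 within lane 7. APAF1, the scaffold that activates it, had -0.08 (-0.56 to 0.39). FAS, a death receptor, had -0.04 (-0.79 to 0.71), 0.01 in the blocked fit and 0.02 when libraries were scaled by size alone. The summed CPM of the 4 genes was lower in hypoxia in 5 of 6 numbers, with 182 to 297 CPM in hypoxia and 217 to 419 CPM in normoxia.

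XIAP, which binds and blocks caspases, had 76.8, 18.5, 21.9, 37.1, 73.9 and 47.2 CPM in hypoxia, against 64.1, 28, 77.3, 35.8, 78.2 and 37.0 CPM in normoxia. Number 16 was the lowest in both groups, and hypoxia was lower in 3 numbers and higher in 3. Its log2 fold change was -0.17 (-0.90 to 0.56), and 0.08 within lane 8.

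Among genes tied to senescence and ageing, SIRT1, a protein deacetylase that acts on p53, had 37.2, 34.0, 38.4, 31.2, 30.4 and 39.9 CPM in hypoxia, against 30.9, 21.0, 19.3, 35.8, 46.1 and 26.2 CPM in normoxia. Its hypoxia libraries lay within the range of its normoxia libraries. SIRT1 was higher in hypoxia in 4 of 6 numbers, with a log2 fold change of 0.21 (-0.36 to 0.77), and -0.02 within lane 8. LMNB1, the lamin gene whose loss of expression marks senescent cells, averaged 141 ± 34.5 CPM in hypoxia and 177 ± 88.9 CPM in normoxia. Its log2 fold change was -0.32 (-0.91 to 0.26), with hypoxia higher in 3 numbers and lower in 3, and -0.06 without normoxia 33.

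TERT, the catalytic subunit of telomerase, had 0 reads in 6 of the 12 libraries and at most 7. Its hypoxia libraries held 8 reads in all and its normoxia libraries 13. Where a library had 0 reads, up to 3 reads are compatible with the count, which is 7.12 to 14.5 CPM at these depths and covers counting error only. GDF15, a secreted stress factor induced by p53, had 0 reads in hypoxia 110 and in normoxia 21 and up to 19 elsewhere. Without the filter, the 7 untested genes had log2 fold changes of -0.63 to 0.17, each with an edgeR adjusted p of 1.

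**Figure D3:**
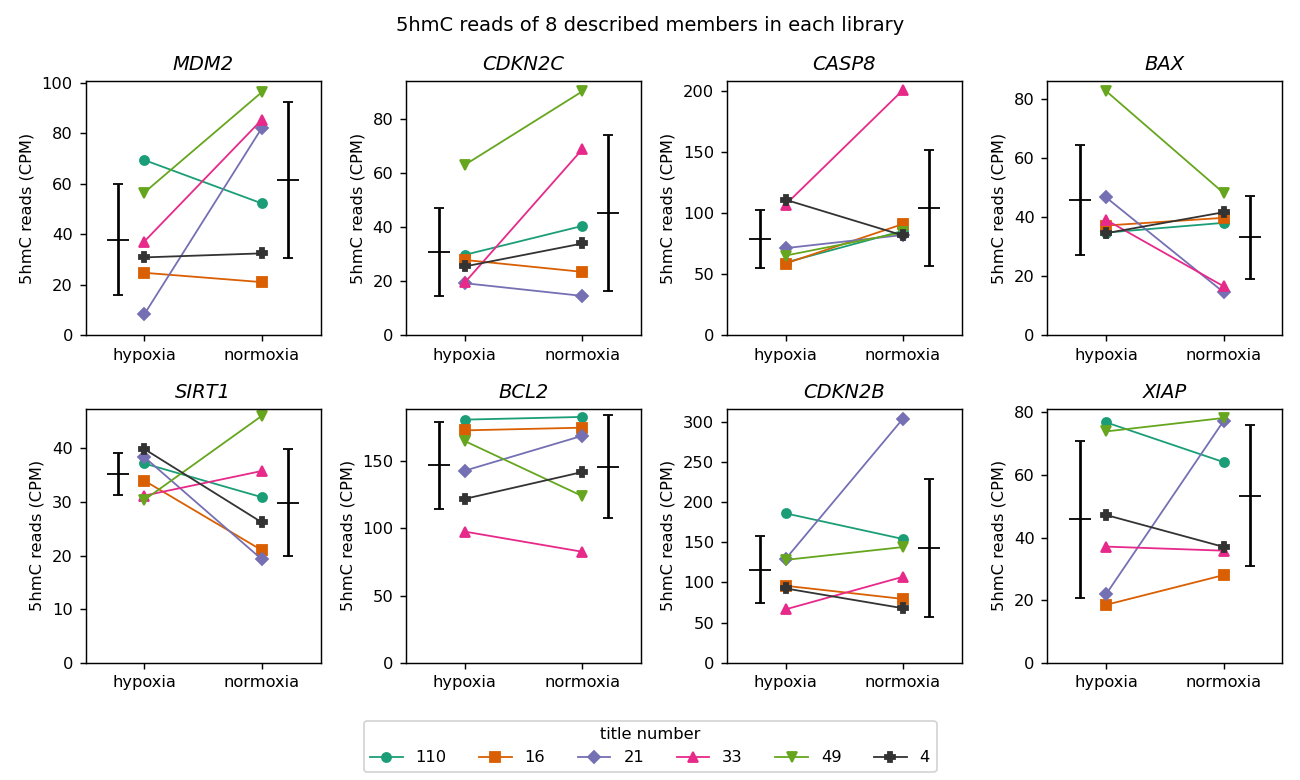
5hmC reads in CPM of 8 genes in the 6 hypoxia (left) and 6 normoxia (right) libraries, with lines joining the libraries of a title number. Dashes and bars are means ± SD, and each panel has its own axis. The groups overlap in every panel, and the high numbers recur in both groups for CDKN2B (110, 21 and 49) and CDKN2C (49).

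The share of these genes at which title numbers differed lay below or above that of all genes, depending on the threshold. The test of the 5 number coefficients together, with treatment in the model, called 2 of the 21 genes (9.52%), CDKN2B (adjusted p = 0.0216) and CDKN2C (adjusted p = 0.0402), while 12.8% of all tested genes were called. At an unadjusted p under 0.05 there were 8 of 21 (38.1%), against 29.4% of all tested genes. Without the filter, 6 of 28 were called, adding MDM2, CDKN1B, XIAP and LMNB1, against 9.09% of 25337 genes. These 2 shares are not at like depth, since 21 of the 28 passed the filter but only 11868 of the 25337.

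The mean CPM of CDKN2B over the 2 libraries of a number was 217 for 21, 170 for 110 and 136 for 49. It was 87.6 for 16, 86.9 for 33 and 80.2 for 4, so that the highest number stood 2.70-fold above the lowest. CDKN2C had 76.6 CPM for 49, 44.2 for 33, 35.0 for 110, 29.7 for 4, 25.6 for 16 and 16.8 for 21, a 4.55-fold span. The 2 INK4 genes thus had different numbers at the top. Number 21, the highest for CDKN2B by this mean, was the lowest for CDKN2C, where its libraries held only 7 and 3 reads. Its lead at CDKN2B came from normoxia 21, at 304 CPM. In hypoxia number 110 was higher, at 186 CPM against 129 CPM.

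Both calls were lost without number 110 (adjusted p of 0.0579 for CDKN2B and 0.0601 for CDKN2C) or without number 16 (0.0560 and 0.0765). Without number 49 CDKN2C had an adjusted p of 0.605. Among the 4 numbers of lane 7, CDKN2B had 0.0508 and CDKN2C 0.476, and LMNB1 was called. Lane and number cannot be told apart for the rest, since every number lies in 1 lane. Without number 21, 7 of the 21 genes were called, MDM2, CDKN2B, CDKN2C, FAS, CASP8, XIAP and LMNB1, while the count over all genes was 1870, against 1520 with all numbers.

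XIAP had the next smallest p for a difference among numbers (unadjusted p = 0.0119, adjusted p = 0.0719), with 76.1 CPM for 49 and 23.3 for 16. LMNB1 followed, with 255 CPM for 33 and 100 for 16 (adjusted p = 0.0819), and number 33 was its highest in both groups. SIRT1 (0.959) and ATR (0.935) had the largest adjusted p of the 21. Their highest and lowest numbers differed 1.39-fold and 1.28-fold.

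**Figure D4:**
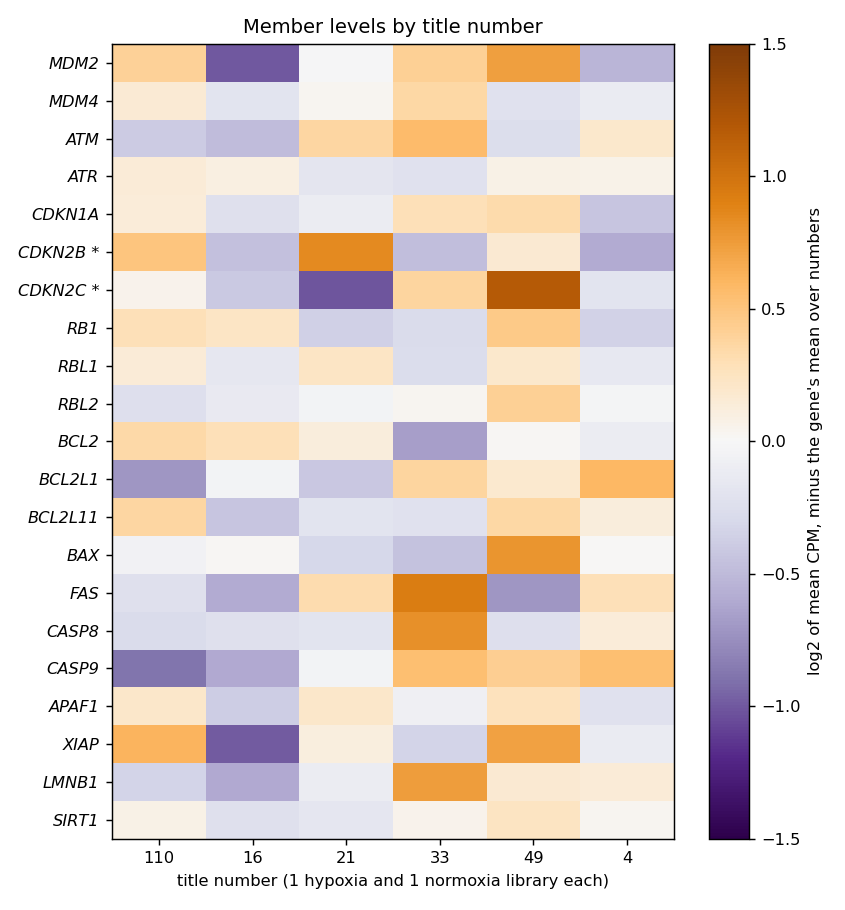
Mean CPM of each tested gene over the 2 libraries of each title number, as log2 relative to that gene's mean over the 6 numbers (orange above, purple below). The star marks CDKN2B and CDKN2C, the genes with an adjusted p under 0.05 for differences among numbers. Number 49 is highest for CDKN2C, number 21 for CDKN2B and number 33 for LMNB1 and CASP8.

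Flanking genes in the RefSeq order gave no further calls. For the 8 genes described by library, 16 neighbours had rows and 10 were tested, of which 0 passed for hypoxia against normoxia and 0 for title number. The tested neighbour of CDKN2B, LOC106509136, had an adjusted p of 0.108 for number, and that of CDKN2C, FAF1, which encodes a FAS-associated factor, 0.555. Next to MDM2, SLC35E3 had a log2 fold change of 0.16 ± 0.376 (SE).

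The spread between libraries was set beside counting error, for these genes and for all. The 21 genes had a mean of 9.92 to 69.5 reads per library. At equal depth, counting alone gives these means a coefficient of variation (CV) of 12 to 31.8%. The observed CV exceeded that in both groups at 16 of 21 (76.2%), close to the 74.8% of all tested genes. It ran from 11.1% (SIRT1) to 58.5% (MDM2) in hypoxia and from 18.2% (MDM4) to 66% (FAS) in normoxia. The normoxia CV was the larger at 17 of 21, against 74.9% of all tested genes, and at 16 of 21 without both libraries of number 21, against 61.9%. Effective library sizes ran from 323562 to 551109 in hypoxia and from 207073 to 648912 in normoxia, and the counting value leaves this unequal depth out.

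**Figure D5:**
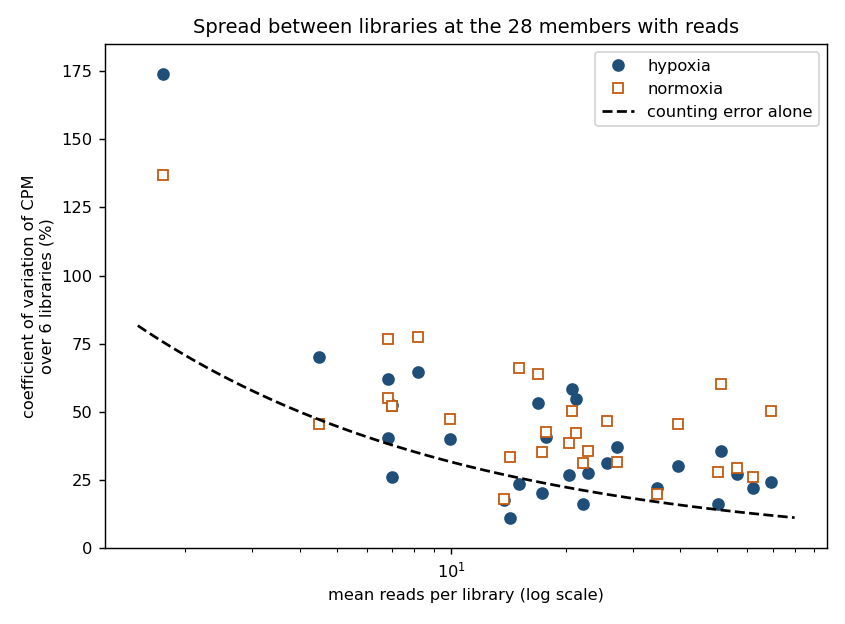
Coefficient of variation of CPM over the 6 libraries of a group, against the mean reads per library (log scale), for the 28 genes with a row. Filled circles are hypoxia, open squares normoxia, and the dashed line is the variation that counting alone gives at equal depth. TERT, the leftmost gene, has CVs of 174% in hypoxia and 137% in normoxia.

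The wider pathway gave 0 calls as well. Of 111 further genes of these pathways, 107 had a row and 63 were tested, with 0 passing with or without the block. Their log2 fold changes were negative at 42 (66.7%) and positive at 21, where 56.6% of all tested genes were negative. The median was -0.11, against -0.04 over all tested genes. Hypoxia was lower in 5 or 6 numbers at 7.94% of the 63, against 14.3% of all tested genes, and higher that often at 6.35%, against 11.9%. In the RB pathway 10 of 11 tested genes were negative, and among caspases and death signalling 7 of 9. Among further p53 targets 7 of 11 were negative, among p53 modifiers and checkpoint genes 8 of 10, and in the rest of the BCL2 family 5 of 8. The senescence and telomere list had 5 of 14.

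On the positive side, TIGAR, a p53 target that lowers glycolytic flux, had 68.0 ± 21.4 CPM in hypoxia and 46.3 ± 9.61 CPM in normoxia, a log2 fold change of 0.53 ± 0.262 (SE), higher in 5 of 6 numbers. TP53I3 had 0.45 ± 0.389, GLB1, the lysosomal galactosidase used as a senescence stain, 0.36 ± 0.266, and the telomere protein gene TINF2 0.28 ± 0.232. Each had an edgeR adjusted p of 1.

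On the negative side, CDK2, the kinase that CDKN1A inhibits, had 37.3 ± 10.5 CPM in hypoxia and 52.1 ± 9.54 CPM in normoxia, lower in 6 of 6 numbers, with a log2 fold change of -0.46 ± 0.262. TP63, a p53 relative, was also lower in 6 of 6 numbers, at -0.49 ± 0.292. Of the 63 tested wider genes 2 were lower in all 6 numbers, as were 307 of all 11868 tested genes. TP53INP1, induced by p53, had -0.49 ± 0.255, BIRC3, a relative of XIAP, -0.43 ± 0.224, and BOK, a BAX relative, -0.57 ± 0.352. Their adjusted p was 1 without the block and 0.646 to 0.800 with it.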

How the data were processed

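Per the labels' protocols, DNA was RNase-treated, sonicated, denatured and captured with an anti-5hmC antibody, and single-stranded libraries were sequenced from both ends. HTSeq, Bowtie2, Picard, edgeR and MACS2 were used, per the submitters' processing notes, which give no versions here. The authors deposited raw HTSeq read counts per gene symbol, 1 table per library. Build, annotation, feature type and strand setting: not given in the sources used here, so overlapping genes cannot be told apart. MACS2 peak lists and 1 input sample were not used here. Reads outside any feature (88.0 to 93.0%), of low alignment quality (4.12 to 10.3%) and in a blank row (0 reads) were left out.

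Under R 4.3.3, edgeR 4.0.16 fitted the counts (glmQLFit, glmQLFTest) after TMM scaling. Genes were kept by filterByExpr at a minimum count of 10 and a minimum total of 15, which does not require 10 reads in every library. Calls were made at an adjusted p of 0.05. CPM use the TMM-adjusted sizes, and log2 ratios within a number a prior count of 2. DESeq2 1.42.0 and other settings were alternatives. The fit was tested on simulated data. After group means were removed, log2 CPM of libraries sharing a number correlated at 0.136 to 0.478 across genes, above the threshold of 0.1, so the numbers were taken to pair the libraries. The number starts each title. Hypoxia 33 correlated best with normoxia 4, and hypoxia 4 and normoxia 4 each best with number 33. The pairing of 33 and 4 is thus uncertain, and the blocked fit, within-number ratios and counts over numbers all rest on it. Differences among numbers were tested with treatment in the model. Gene order came from the RefSeq table of Sscrofa11.1, where all 28 genes matched by symbol.

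The members and lists were chosen with earlier results of these data known. Genes given by library were the 3 with the smallest p in each direction, the 3 with the smallest p among numbers, and any past the threshold. From the wider lists, the 5 with the smallest p in each direction were named, except 1 that is not reported here. Confidence intervals are at 95%.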

Additional observations from a re-analysis of the deposited data

Results flagged for a closer look

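Sets of the 6 libraries of 1 group at 1 gene were checked for a library that stood apart. In 6 of 56 sets the highest library stood farther from the next than Dixon's 95% critical value allows. For normally distributed values chance flags about 1 set in 20. The share over all tested genes is not given here, so the count says nothing particular about these genes. CDKN2B had 304 CPM in normoxia 21, with the next library at 154 CPM. CDKN2C had 63.0 CPM in hypoxia 49, with the next at 29.7 CPM, and BAX had 82.6 CPM in hypoxia 49, with the next at 46.6 CPM. RBL2 had 70.2 CPM in normoxia 49, with the next at 44.7 CPM. CASP8 had 201 CPM in normoxia 33, from 73 reads, with the next at 91.1 CPM. TERT had 11.7 CPM in hypoxia 33, which is 6 reads, with the next at 2.17 CPM.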

How the results depend on the processing

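The count of the genes called for hypoxia against normoxia was 0 under every alternative run: the replicate block, library size only, DESeq2 size factors, DESeq2, no filter, either lane, lane as a covariate, and leaving out any library or, with the block, any number. Over all genes the block gave 4 calls, and 0 to 12 without 1 number (0 without 110, 3 without 16, 12 without 21, 0 without 33, 2 without 49, 0 without 4), and the pairing changed no other call. The median fold change ran from -0.26 to -0.11 without 1 library and from -0.24 to -0.09 with the block and without 1 number. For differences among numbers, library size only called 1 of the genes (1403 of all genes), no filter called 6 (2303 of all genes), lane 7 called 1 (823 of all genes), and leaving out 1 number 0 to 7 (891 to 1870 of all genes). Of 546 single-gene fold changes under other settings, 51 changed sign, at 15 of the 21 genes. Signs turned for FAS (0.01) under the block, for ATM (0.04) and FAS (0.02) with size scaling, for RBL2 (0.17), BCL2 (-0.04) and CASP9 (0.24) in lane 7, and in lane 8 for ATM (0.14), CDKN2B (0.06), RB1 (0.16), BCL2L11 (0.09), FAS (0.26), CASP8 (0.09), APAF1 (0.20), XIAP (0.08) and SIRT1 (-0.02). Without 1 library, log2 fold changes ran from -0.15 to 0.01 for MDM4, -0.19 to 0.18 for ATM, -0.28 to 0.05 for CDKN1A, -0.44 to 0.07 for CDKN2B, -0.11 to 0.10 for BCL2, -0.33 to 0.00 for BCL2L1, -0.22 to 0.35 for FAS, -0.31 to 0.15 for CASP9 and -0.15 to 0.01 for APAF1. With the sign kept they ran from -0.90 to -0.45 for MDM2, -0.93 to -0.26 for CDKN2C, -0.35 to -0.03 for RBL2, 0.15 to 0.53 for BAX, -0.51 to -0.09 for CASP8, -0.46 to -0.06 for LMNB1 and 0.12 to 0.38 for SIRT1. With the block and without 1 number they ran from -0.17 to -0.05 for MDM4, -0.24 to 0.16 for ATM, -0.34 to 0.11 for CDKN1A, -0.31 to 0.04 for CDKN2B, -0.06 to 0.08 for BCL2 (-0.01 without 33), -0.22 to -0.03 for BCL2L1, -0.11 to 0.26 for FAS (0.03 without 21), -0.30 to 0.07 for CASP9, -0.20 to 0.07 for APAF1 and -0.29 to 0.06 for XIAP, whose lowest without 1 library was -0.36. The cause was not tested. With 3 to 119 reads per library at the tested genes, depth limits the precision of each value.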

Other observations

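Among the wider pathway genes, 12 of 63 differed among title numbers past the adjusted threshold, against 12.8% of all tested genes, and 5 of these belong to the 14 tested senescence and telomere genes. CXCL8, a secreted chemokine, had a mean of 220 CPM in number 21 and 15.1 CPM in number 33 (edgeR adjusted p = 2.5e-06). IGFBP5, a secreted binder of insulin-like growth factors, had 135 CPM in number 4 and 14.4 CPM in number 21 (adjusted p = 6.08e-05), and IL6 had 181 CPM in number 4 and 41.9 CPM in number 16 (adjusted p = 0.00111). PLK2, a kinase gene induced by p53, had 354 CPM in number 33 and 91.9 CPM in number 16 (adjusted p = 0.000329). CCND1, which encodes the cyclin partner of CDK4 and CDK6, had 102 CPM in number 49 and 18.5 CPM in number 21 (adjusted p = 0.0214). Numbers 49 and 21 were also the highest and the lowest for CDKN2C.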
